A study of Mus musculus with 12 samples.

Results

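The 85 genes described here carry the symbols of the proteins of the cytosolic ribosome, the particle that reads messenger RNA and joins amino acids in every cell. They were taken by symbol, as all genes named Rps or Rpl with a number (and the letters a, x, y or l), together with Rpsa, Rplp0, Rplp1 and Rplp2; pseudogenes with a -ps symbol and the Rps6k kinases were not taken. That gave 85 of the 23238 gene symbols in the tables, 33 for the small subunit and 52 for the large one. Of these, 8 are paralogs of other members: Rpl3l, Rpl7l1, Rpl10l, Rpl22l1, Rpl36al, Rpl39l, Rps4l and Rps27l. Fau also makes a ribosomal protein, fused to a ubiquitin-like protein, but lies outside the symbol rule.

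The small subunit holds the messenger and checks each codon, and the large subunit forms the peptide bond. Each protein enters the particle in a fixed ratio to the others, with the acidic stalk proteins Rplp1 and Rplp2 as the known exception of more than 1 copy. Vertebrate messengers of this family are known to begin with a run of pyrimidines (C and T), through which growth signals govern their translation, and the mouse genome carries many processed copies of them.

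The RNA came from meninges, the membranes around the brain, of mice 20 weeks old, and the cells were described as lymphatic endothelial cells taken by magnetic sorting from 3 to 4 mice per strain. The 12 libraries formed 3 groups of 4 by title: AD_TG, AD_B6 and SJL_B6. The labels do not spell these names out, give C57BL/6 as the strain of every sample, and name no allele, transgene promoter or treatment; the series title names DSCR1 and Alzheimer's disease. Whether these 4 stand for separate animals or for pools is not stated, so p-values measure only the spread between these samples.

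The tables held log2(x + 1) of scaled amounts, here called deposited log2 levels. Low values lay on even steps, from which 4012558 to 9315043 reads per library were estimated, and a gene was said to have reads at a linear value of 0.3 or more. Rcan1, the mouse gene for DSCR1, lay at 6.47 to 9.28 in AD_TG, 7.34 to 9.55 in AD_B6 and 5.21 to 9.05 in SJL_B6 libraries, so the groups overlapped. The labelled cell type was checked against 10 lymphatic endothelial markers: 2 of them (Pdpn and Nrp2) had reads in all 12 libraries and Prox1, which defines the type, had reads in 2 of 12. Their summed share of the linear total was 0.0178 to 0.0368% in AD_TG, 0.0195 to 0.0402% in AD_B6 and 0.0223 to 0.0556% in SJL_B6 libraries. All 6 macrophage markers had reads in all 12 libraries (0.192 to 0.306%, 0.132 to 0.314% and 0.269 to 0.416% in AD_TG, AD_B6 and SJL_B6), as did 3 of 5 fibroblast markers (0.0972 to 0.586%, 0.167 to 0.779% and 0.172 to 0.412%) and 3 of 5 choroid plexus markers (1.60 to 6.40%, 0.254 to 8.60% and 0.170 to 5.28%). Markers of several cell types were thus read beside the ribosomal protein genes, and in bulk libraries fewer cells of a type and less RNA per cell cannot be told apart.

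The rule used no sequence, and many members share a pyrimidine run at their start. RefSeq promoter windows of build GRCm38.p6 matched 64 of the 85 genes. A run of at least 7 C or T letters touched the 10 bases on either side of the annotated start in 34 of these 64 genes (53.1%), against 22.5% of all 27025 genes with a window. The letters CTTTCC stood within 15 bases of the start, on the sense strand, in 10 of the 64 (15.6%), against 1.67% of all genes; anywhere in the 300 bases and on either strand they stood in 34 (53.1%), against 29.3% of all genes. The windows below run from 30 bases before the start through the 30 bases that begin at it, 5′ to 3′ on the sense strand, with the longest run that touches the 10 bases on either side of the start in capitals; for Rps27l the first of 2 annotated starts is shown. They show 2 genes whose AD_TG and AD_B6 libraries did not overlap (Rps10, Rpl27a), Rpl4, a further gene described for that comparison, high members with and without a run (Rps9, Rpl41), the lowest member with its paralog (Rps27, Rps27l), and the member that varied most among the 81 with reads in all libraries (Rpl7l1).
Rps10: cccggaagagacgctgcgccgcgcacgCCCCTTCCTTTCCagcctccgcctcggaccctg
Rpl27a: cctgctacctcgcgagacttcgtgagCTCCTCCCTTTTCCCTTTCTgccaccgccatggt
Rpl4: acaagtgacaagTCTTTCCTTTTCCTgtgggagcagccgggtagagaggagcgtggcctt
Rps9: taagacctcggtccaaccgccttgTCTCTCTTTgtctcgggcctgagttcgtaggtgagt
Rpl41: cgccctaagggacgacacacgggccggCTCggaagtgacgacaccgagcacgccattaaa
Rps27: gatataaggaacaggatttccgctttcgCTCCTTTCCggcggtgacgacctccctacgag
Rps27l: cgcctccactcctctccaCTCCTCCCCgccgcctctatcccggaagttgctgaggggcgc
Rpl7l1: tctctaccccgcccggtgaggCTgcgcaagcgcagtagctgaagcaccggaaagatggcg
These windows are, in RefSeq GRCm38.p6, Rps10 at chr17:27635215-27635274, minus strand; Rpl27a at chr7:109519165-109519224, plus strand; Rpl4 at chr9:64173357-64173416, plus strand; Rps9 at chr7:3704011-3704070, plus strand; Rpl41 at chr10:128549139-128549198, minus strand; Rps27 at chr3:90213619-90213678, minus strand; Rps27l at chr9:66946056-66946115, plus strand; and Rpl7l1 at chr17:46782627-46782686, minus strand. The runs of Rps10 and Rps27 held 13 and 9 letters with CTTTCC inside, and that of Rpl27a held 20. Rpl41 had a longest run of 3 and Rpl7l1 of 2, although Rpl41 was among the highest members and Rpl7l1 among the lowest. The runs of Rpl4 and Rps27l lie wholly before the annotated start. A match in these windows, or the lack of one as in Rpl41, is a description of the letters there. Whether transcripts in these libraries begin at the annotated start was not tested.

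Nearly all of the family was read in every library. Reads were found in all 12 libraries for 81 of the 85 genes (95.3%; 32 of the small and 49 of the large subunit), against 4950 of all 23238 symbols (21.3%). The number of members with reads was 82.75 on average in AD_TG, 82.5 in AD_B6 and 82.75 in SJL_B6 libraries, and ran from 81 to 84. The 4 exceptions, Rpl3l, Rpl10l, Rpl39l and Rps4l, were all paralogs. Rpl3l, which replaces Rpl3 in skeletal and heart muscle, had no reads in any library; of 5 muscle markers, Acta1 had reads in all 12 and Myh1, Myh4, Ckm and Myh6 in 1 or 2 libraries.

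Rpl10l and Rpl39l, known from male germ cells, had reads in some libraries only, and no group stood apart. Rpl10l had deposited log2 levels of 6.84, 0.81, 2.62 and 0.00 in AD_TG libraries, 0.95, 0.87, 0.00 and 8.16 in AD_B6 libraries and 0.02, 0.00, 3.89 and 6.14 in SJL_B6 libraries. Its level was above 6 in 1 library of each group and at or near 0 in others of the same group, so the groups overlapped. Rpl39l had 0.07, 0.00, 0.00 and 0.00 in AD_TG libraries, 0.95, 0.00, 0.00 and 0.03 in AD_B6 libraries and 0.02, 0.00, 7.56 and 0.00 in SJL_B6 libraries, which is 1 high library, SJL_B6 replicate 3. Of the germ line markers, Ddx4, Prm1 and Tnp1 had no reads in any library and Dazl had reads in 3.

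Together the 85 genes took 1.76 ± 0.29% of the linear total in AD_TG, 1.91 ± 0.30% in AD_B6 and 1.998 ± 0.52% in SJL_B6 libraries (SD, n = 4 each), with a range over libraries of 1.41 to 2.64%. The mean deposited log2 level of the 81 genes with reads throughout was 10.005 ± 0.21 in AD_TG, 10.02 ± 0.16 in AD_B6 and 10.11 ± 0.32 in SJL_B6 libraries (SD, n = 4 each). The spread within a group was wider than the distance between group means. By library the mean was 9.76, 9.93, 10.05 and 10.27 in AD_TG, 9.999, 10.09, 10.19 and 9.82 in AD_B6, and 9.90, 10.45, 9.78 and 10.29 in SJL_B6.

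Libraries with a low mean for these genes had a high level of Rn45s, the precursor of ribosomal RNA. Rn45s had deposited log2 levels of 19.80, 19.16, 18.99 and 18.37 in AD_TG libraries, 18.51, 18.93, 18.47 and 19.28 in AD_B6 libraries and 20.05, 18.48, 19.76 and 18.53 in SJL_B6 libraries. The 4 libraries with the highest Rn45s, which were AD_TG replicate 1, AD_B6 replicate 4 and SJL_B6 replicates 1 and 3, had the 4 lowest means of the ribosomal protein genes, and 3 of these 4 were also among the 4 with the fewest estimated reads. The median level of all genes with reads throughout ran only from 9.02 to 9.11 over the 12 libraries. The part of Rn45s or of depth in the means of the ribosomal protein genes was not tested.

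**Figure D1:**
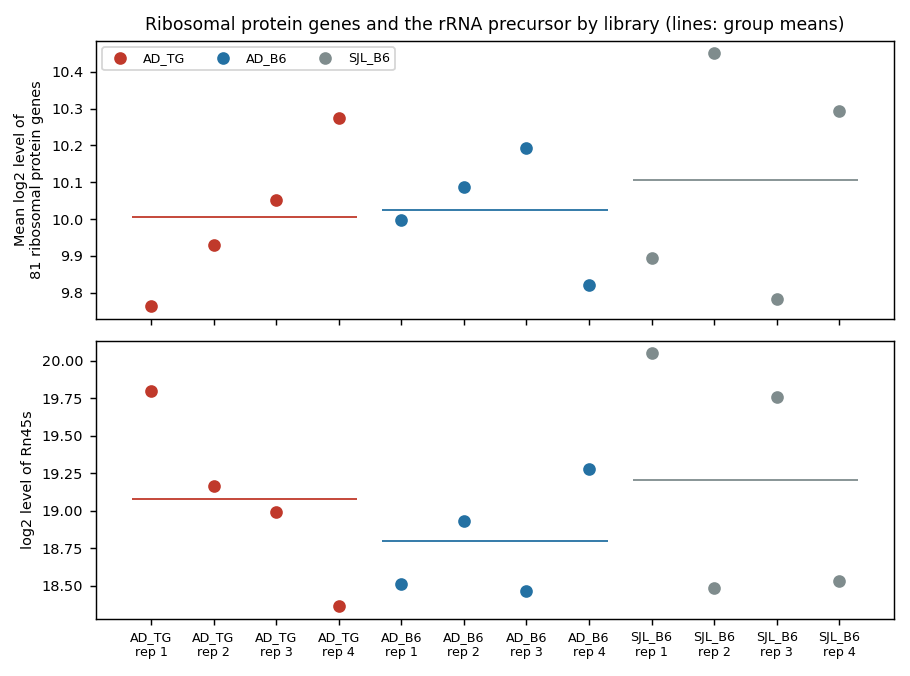
Mean deposited log2 level of 81 ribosomal protein genes (top) and log2 level of Rn45s (bottom) in each of the 12 libraries; points are libraries and lines are group means. The group means of the ribosomal protein genes (10.005, 10.02 and 10.11 in AD_TG, AD_B6 and SJL_B6) lie closer together than the libraries of any 1 group, and the 4 libraries highest in Rn45s are lowest in the upper plot.

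Although the proteins of the complex are needed in a fixed ratio, the levels listed for their genes were far apart. The mean deposited log2 level ran from 7.66 for Rps27 to 12.82 for Rplp1, a range of 5.17, with an SD between the 81 genes of 1.22. Per kilobase of coding length the log2 level ran from 8.14 (Rpl7l1) to 15.46 (Rpl41), a range of 7.32 with an SD of 1.49. Within single libraries the SD between the 81 genes was 1.19 to 1.32 in AD_TG, 1.33 to 1.36 in AD_B6 and 1.23 to 1.43 in SJL_B6. The library kit reads transcripts near their end, so a level may scale with molecules rather than with length, and both scales are given. Coding length and deposited log2 level had a Spearman rho of -0.155 over the 81 genes. Division by coding length raises most the genes with the shortest one, such as Rpl41 with 75 bases.

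The highest members were much the same on both scales. Of the 6 highest genes on the deposited scale, 5 were among the 6 highest per kilobase. Rplp1, an acidic stalk protein that draws elongation factors to the ribosome, had deposited log2 levels of 13.50, 12.04, 12.60 and 12.36 in AD_TG libraries, 12.56, 12.78, 12.94 and 12.39 in AD_B6 libraries and 13.37, 13.68, 12.60 and 13.07 in SJL_B6 libraries. These libraries ran from 12.04 to 13.68 with overlapping groups, and the mean log2 level per kilobase of coding length was 14.37. Rpl41, which encodes a peptide with a coding length of 75 bases, averaged 11.73 on the deposited log2 scale and 15.46 per kilobase. Rps29, a zinc-binding protein of the small subunit, averaged 12.62 and 15.20 on these scales, Rpl22 12.70 and 14.08, Rps20 12.12 and 13.61, and Rps9 12.22 and 13.004.

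The other stalk members did not share the level of Rplp1. Rplp2, its partner in the stalk, averaged 11.42 on the deposited log2 scale and 12.96 per kilobase of coding length, and Rplp0, the protein that anchors the stalk, averaged 10.99 and 11.07. Rpsa, a small subunit protein also known as a laminin receptor precursor, averaged 9.60 and 9.78. Its libraries spread from 8.49 to 10.80 within SJL_B6 alone.

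The lowest members on the deposited log2 scale were Rps27 (7.66 deposited, 9.65 per kilobase), Rpl7l1 (7.70 and 8.14), Rpl17 (7.87 and 8.73), Rps19 (7.95 and 9.15), Rpl7a (8.07 and 8.40) and Rpl12 (8.14 and 9.15). Rps19 is the gene most often mutated in human Diamond-Blackfan anaemia, and Rpl12 lies at the base of the stalk. Rps27 had deposited log2 levels of 8.39, 7.71, 7.16 and 7.85 in AD_TG libraries, 7.55, 7.27, 8.29 and 5.77 in AD_B6 libraries and 7.95, 7.68, 7.86 and 8.39 in SJL_B6 libraries. All but AD_B6 replicate 4 lay above 7, so Rps27 was read in every library at a level far below that of the family median of 10.06. Of the 6 lowest genes on the deposited scale, 4 were among the 6 lowest per kilobase.

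**Figure D2:**
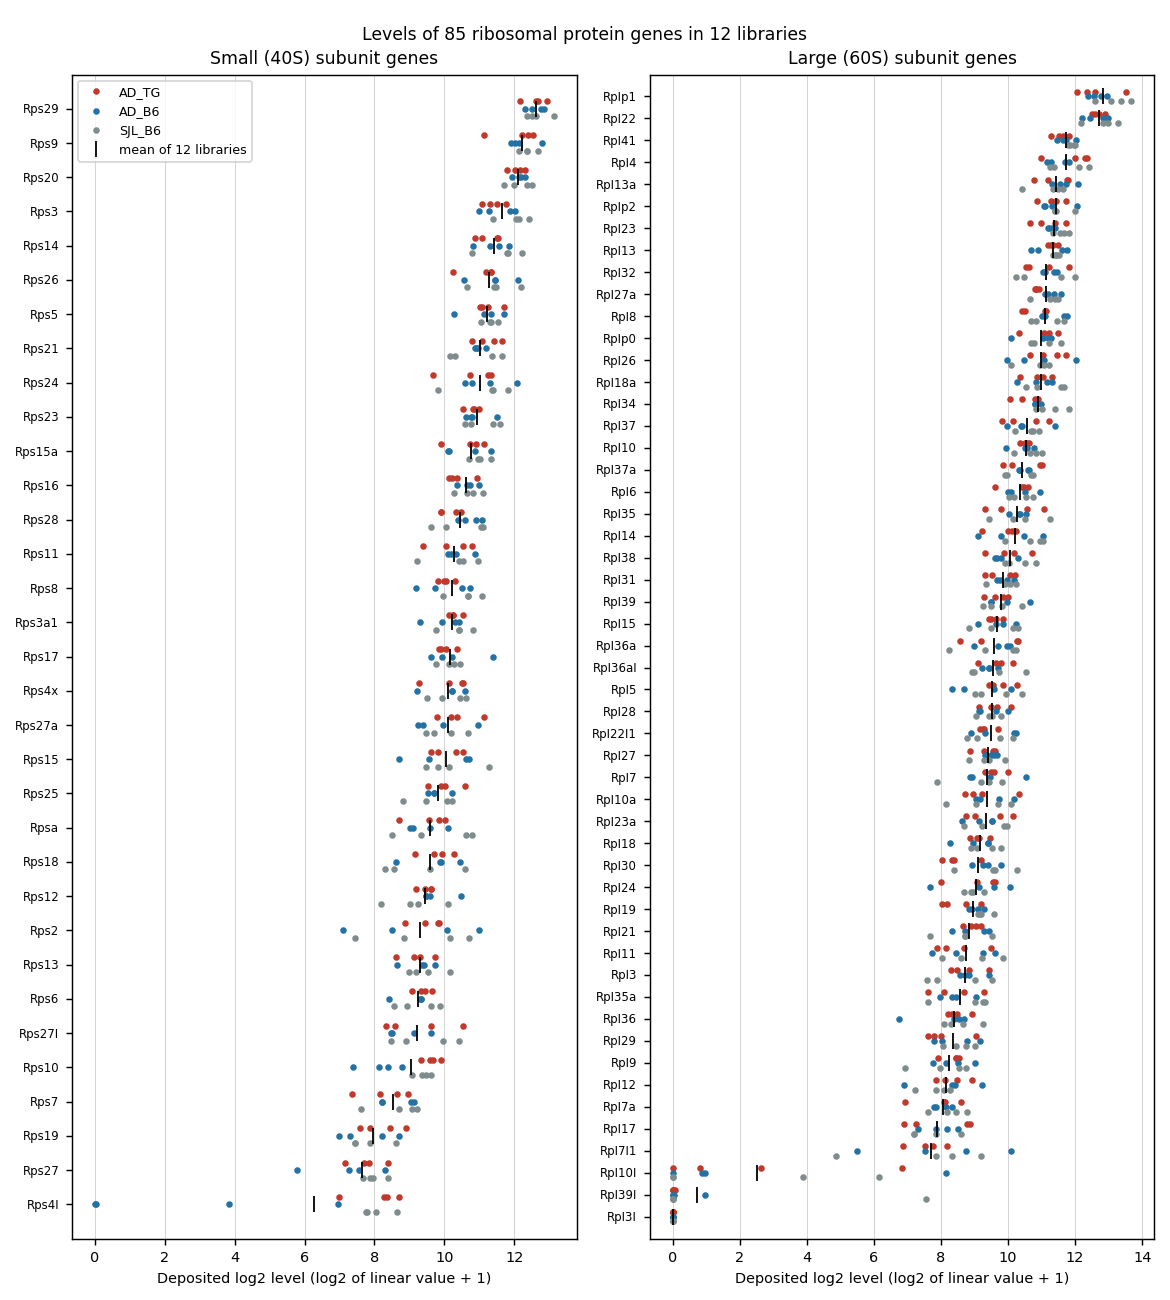
Deposited log2 level of each of the 85 genes in the 12 libraries, small subunit left and large subunit right, genes ordered by their mean (black tick); points are libraries coloured by group. The genes run from about the level of Rplp1 (mean 12.82) down to Rpl3l without reads, and for most genes the colours overlap.

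Members whose transcript end is mostly shared with other genes had the lower median level. The last 300 bases of 1 annotated transcript per gene were compared with all other annotated mouse genes in stretches of 50 bases. At least 1 stretch was found in another gene for 65 of the 81 members (80.2%), against 7.99% of the 11215 tested genes that could be matched, and over 50% of the stretches were found elsewhere for 51 members (63.0%), against 3.10%. The median deposited log2 level was 9.51 for these 51 genes, 11.07 for the 14 with up to 50% shared, and 10.99 for the 16 with none. Per kilobase of coding length the medians were 10.63, 12.46 and 11.65. Across the 81 genes the shared percentage and the deposited log2 level had a Spearman rho of -0.418 and a Pearson r of -0.385; all genes come from the same 12 libraries and many share copies, so this is a description. In single libraries rho ran from -0.456 to -0.376, and it was 0.0332 over all tested genes.

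The highest and lowest members on the deposited log2 scale did not all follow that order. Rplp1 shared 66.9% of its stretches and was highest, while Rpl12 and Rpl7l1 shared none and were among the lowest. For Rps20 the annotated transcript used was 3706 bases long, with none of its end shared. How the authors counted reads that match more than 1 place is not given in the sources used here, so levels of members with shared ends are uncertain, and the part of sharing in their levels was not tested.

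**Figure D3:**
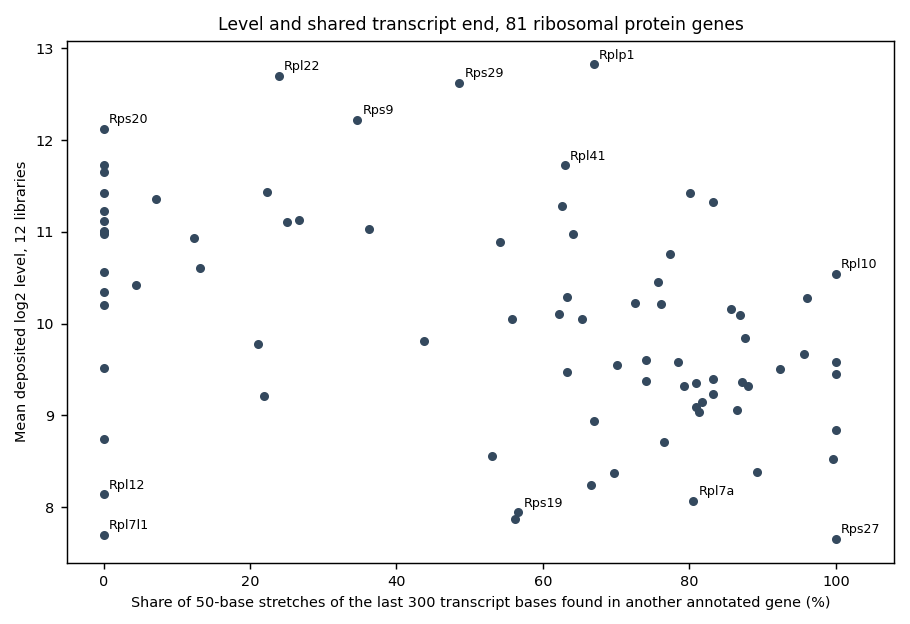
Mean deposited log2 level of 81 ribosomal protein genes against the percentage of 50-base stretches at the transcript end that also occur in another annotated gene; each point is a gene. Genes above 50% have a median level of 9.51 and genes with none 10.99. The points of the classes overlap widely, with Rplp1 among the genes that lie far from the median of their class.

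Copies of the family were themselves in the tables and some had more signal than the gene they resemble. Rps27rt, a retrocopy of which 91.1% of the 50-base stretches also occur in Rps27, was higher than Rps27 on the deposited log2 scale in 12 of 12 libraries, with levels of 9.62, 10.31, 10.25 and 11.11 in AD_TG libraries, 9.96, 10.10, 10.69 and 9.94 in AD_B6 libraries and 9.90, 10.88, 9.58 and 11.21 in SJL_B6 libraries. Their transcripts have 374 and 345 bases and are close in length. Rpl37rt shared 38.7% with Rpl37 and was also higher in 12 of 12 libraries, averaging 12.50 on the deposited log2 scale, against 10.56 for Rpl37, with transcripts of 682 and 835 bases. Rplp2-ps1, which matched no annotated transcript by name, averaged 12.71 on the deposited log2 scale. By contrast Rpl14-ps1, Rpl31-ps12, Rpl34-ps1, Rps15a-ps4 and Rps15a-ps6 were below their namesakes in all 12 libraries and Rps19-ps3 in all but 1. Reads from Rps27 and Rps27rt cannot be told apart over the shared stretches.

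The paralogs share no 50-base stretch with their namesakes, but several namesakes and several paralogs share their ends with other genes. Of the 50-base end stretches, 100% occur elsewhere for Rps27 and Rpl36a, 74.1% for Rpl7 and 23.9% for Rpl22. Among the paralogs, 70.1% occur elsewhere for Rpl36al, 63.3% for Rpl22l1 and 21.9% for Rps27l, and none for Rpl7l1, Rpl3l, Rpl10l and Rpl39l. The differences below are thus between deposited entries. The members of each pair described here have nearly equal coding lengths where both have one. Rps27l, a p53-induced relative of Rps27 with the same coding length of 252 bases, was higher than Rps27 in 12 of 12 libraries. Rps27l had deposited log2 levels of 8.58, 8.33, 10.54 and 9.62 in AD_TG libraries, 8.49, 9.12, 8.49 and 9.63 in AD_B6 libraries and 10.41, 8.90, 8.48 and 9.95 in SJL_B6 libraries. Its log2 difference to Rps27 averaged 1.49 ± 1.43 in AD_TG, 1.71 ± 1.58 in AD_B6 and 1.46 ± 0.77 in SJL_B6 libraries (SD, n = 4 each), which are closer than their spread. The difference is that to the deposited Rps27 entry, without Rps27rt. Rps27rt alone averaged 10.30 on the deposited log2 scale, above the 9.21 of Rps27l, so the order depends on that copy.

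Rpl22l1, known to be raised in mice that lack Rpl22, lay below it in every library. The log2 difference of Rpl22l1 to Rpl22 averaged -3.34 ± 0.26 in AD_TG, -2.97 ± 1.01 in AD_B6 and -3.37 ± 0.66 in SJL_B6 libraries (SD, n = 4 each). Rpl36al and Rpl36a, with coding lengths of 318 bases each, were close: Rpl36al was higher in 6 of 12 libraries, with a log2 difference of 0.08 ± 0.99 in AD_TG, -0.23 ± 0.67 in AD_B6 and 0.06 ± 0.93 in SJL_B6. Rpl7l1, a relative of Rpl7, was above Rpl7 in 1 of 12 libraries, with a log2 difference of -2.02 ± 0.45 in AD_TG, -1.49 ± 1.33 in AD_B6 and -1.51 ± 2.15 in SJL_B6. In no pair did a group mean differ from another by more than the larger of their SDs, apart from Rps4l, described further on.

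The ribosomal protein genes varied less between libraries than most other genes of their level. The SD within groups had a median of 0.503 on the log2 scale over the 81 genes, against 1.04 over the 4950 genes with reads throughout. Since spread depends on level, genes were also set beside others of the same level: 70 of the 77 members between 8 and 13 had an SD below the median of all genes within 1 log2 unit. Between 9 and 10, for example, the median SD was 0.544 for 24 members and 0.846 for 1195 genes, and between 11 and 12 it was 0.416 for 15 members and 0.539 for 253 genes. Rpl41, Rps20 and Rps29 had the smallest SD over the 12 libraries.

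Among the 81 members with reads in all libraries, Rpl7l1 and Rps2 varied most, followed by Rps27l. Rpl7l1 had deposited log2 levels of 7.77, 8.18, 7.52 and 6.87 in AD_TG libraries, 8.74, 7.54, 10.07 and 5.51 in AD_B6 libraries and 9.19, 4.87, 7.85 and 8.33 in SJL_B6 libraries. Rps2, a small subunit protein at the messenger's entry, had 8.86, 9.85, 9.44 and 9.82 in AD_TG libraries, 10.08, 10.999, 8.51 and 7.10 in AD_B6 libraries and 8.83, 10.70, 7.45 and 10.17 in SJL_B6 libraries. In both, libraries of 1 group lay further apart than any group means did, with AD_B6 replicate 4 and an SJL_B6 library at the low end.

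**Figure D4:**
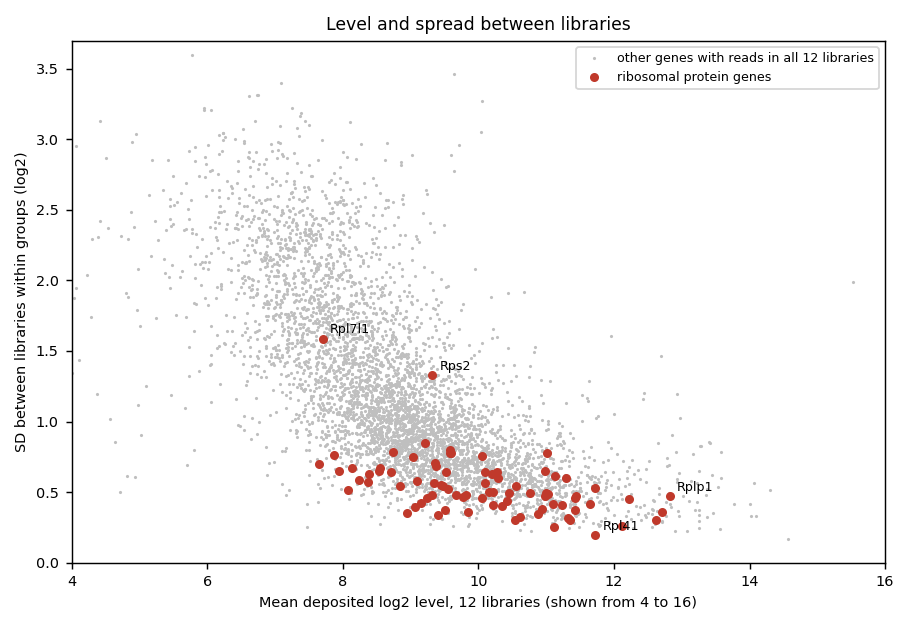
SD between libraries within groups against the mean deposited log2 level, for the 81 ribosomal protein genes (red) and the other genes with reads in all 12 libraries (grey). Most red points lie in the lower part of the grey cloud at their level, with a median SD of 0.503 against 1.04 overall; Rpl7l1 and Rps2 are the highest red points.

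The members' levels were weakly correlated over the libraries. The median Pearson r between 2 members' deposited log2 levels over the 12 libraries was 0.205, with 72.6% of pairs above 0, against a median of -0.0115 over pairs of genes with reads throughout. The median was -0.00526 for the 34 mitochondrial ribosomal protein genes and -0.00410 for the 16 other messengers of the translation machinery with reads throughout. These lists were not matched for level: the median of their genes' mean log2 levels was 7.78 and 9.66. The median r between members was 0.0758 at mean levels of 8 to 9 and 0.391 at 12 to 13. For pairs of all genes at these levels it was -0.0173 and 0.0178. All these correlations share the 12 libraries and their scaling, and the order of library means given above, with that of Rn45s, moves with them. The profile of the 81 genes was much the same in each library: the median r between libraries was 0.846 within groups and 0.862 between groups, against 0.557 and 0.556 over all genes with reads throughout. These profile correlations were not matched for level. The median of the genes' mean log2 levels was 10.06 for the members and 8.81 for all genes with reads throughout.

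No ribosomal protein gene passed the test in any comparison, nor did any other gene. Of the 85 members, 83 passed the filter on low values (10 or more on the linear scale in 4 or more libraries), all but Rpl3l and Rpl39l, among 11955 genes tested with limma on the deposited log2 levels. At a Benjamini-Hochberg adjusted p below 0.05 limma called 0 of 83 members and 0 of 11955 genes (0%) in each of the 3 comparisons, with lowest adjusted p-values of 0.869 for AD_B6 against SJL_B6, 0.871 for AD_TG against AD_B6 and 0.999 for AD_TG against SJL_B6. Without limma's variance trend 10, 10 and 2 genes were called in these comparisons, in the same order, and 0 of them were members. The libraries of each group serve in 2 comparisons, so the comparisons are not independent. The 95% interval of a log2 difference reached a median of 1.09 to either side for the members, against 3.85 for all tested genes. For the 42 members with a mean of 10 or more it reached 0.847, and 0.959 for all 967 such genes. These intervals are not adjusted for the number of genes tested, so differences within them, and wider ones, could go uncalled. For Rps4l in AD_TG against AD_B6 the interval of 1.72 to 9.02 left out 0, with a limma adjusted p of 0.871.

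Described next are 4 members with known roles beside the building of the particle, taken for those roles. Since no tested gene was called in any comparison, the lack of a call is nothing particular to them. Rps6, the substrate of the S6 kinases, had deposited log2 levels of 9.64, 9.07, 9.43 and 9.34 in AD_TG libraries, 9.31, 9.34, 9.32 and 8.43 in AD_B6 libraries and 8.55, 9.87, 8.93 and 9.63 in SJL_B6 libraries. Every library but AD_B6 replicate 4 and SJL_B6 replicates 1 and 3 lay above 9. Rpl11, which binds Mdm2 together with Rpl5 and so ties ribosome supply to p53, had 8.15, 7.88, 8.69 and 9.50 in AD_TG libraries, 7.73, 8.44, 9.61 and 9.25 in AD_B6 libraries and 8.02, 9.22, 8.60 and 9.84 in SJL_B6 libraries. Its range within each group covered more than 1 log2 unit, and the groups overlapped. Rps27a, made as a fusion to ubiquitin, had 9.79, 10.20, 10.37 and 11.14 in AD_TG libraries, 9.97, 9.23, 10.98 and 9.38 in AD_B6 libraries and 9.48, 10.20, 9.71 and 10.68 in SJL_B6 libraries. Rpl10, which joins the large subunit last and completes it, had 10.51, 10.61, 10.57 and 10.35 in AD_TG libraries, 10.57, 10.51, 10.78 and 9.94 in AD_B6 libraries and 10.65, 11.001, 10.85 and 10.18 in SJL_B6 libraries. Rpl10 varied less than the other 3 genes, and for none of the 4 genes did the groups separate.

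**Figure D5:**
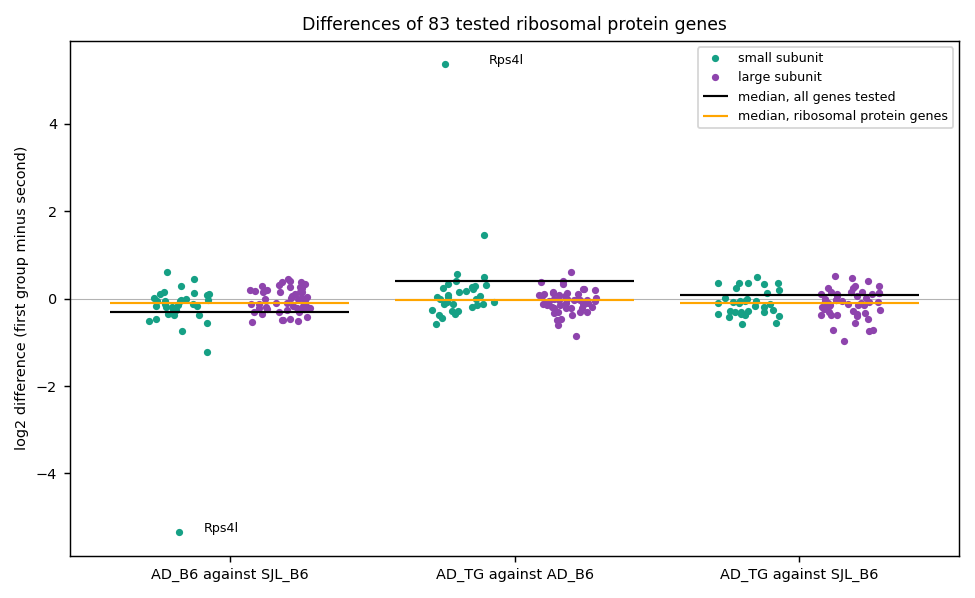
log2 difference of each of the 83 tested ribosomal protein genes in the 3 comparisons, small subunit left and large subunit right; lines are medians of the members and of all tested genes. Rps4l lies at 5.37 in AD_TG against AD_B6 and at -5.34 in AD_B6 against SJL_B6, Rps10 is next, and the other members lie within 1 log2 unit of 0.

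For AD_TG against AD_B6 the members' differences centred near 0. The median log2 difference of the 83 members was -0.03, with 34 higher and 49 lower in AD_TG by their estimates; 17 of 33 small subunit genes and 17 of 50 large subunit genes were on the higher side. The median over all tested genes was 0.41, with 62.8% higher, but over the 4941 of them with reads in all libraries it was 0.10 and over the 967 with a mean of 10 or more it was 0.02. At an unadjusted p below 0.05 stood 2 of 83 members (Rps4l and Rps10), against 639 or 5.35% of all tested genes. The libraries of the groups did not overlap for 3 members (Rps4l and Rps10 higher, Rpl27a lower in AD_TG; 3.61%), against 2.88% of all tested genes, with 1.95% higher and 0.928% lower.

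Rps4l, a relative of Rps4x that the mouse annotation lists as a transcribed processed pseudogene, had the widest difference of the family. Rps4l had deposited log2 levels of 6.99, 8.69, 8.27 and 8.37 in AD_TG libraries, 6.96, 3.84, 0.00 and 0.03 in AD_B6 libraries and 7.79, 7.75, 8.03 and 8.64 in SJL_B6 libraries. AD_TG and SJL_B6 libraries overlapped at levels near 8, while 3 of the 4 AD_B6 libraries lay far below them and AD_B6 replicate 1 just below the lowest AD_TG library. The log2 difference of AD_TG against AD_B6 was 5.37 (SE 1.77, limma adjusted p = 0.871) and that of AD_B6 against SJL_B6 was -5.34 (SE 1.77, limma adjusted p = 0.869). Rps4x, which shares no 50-base stretch with Rps4l, had 10.23, 10.61, 10.22 and 9.20 in AD_B6 libraries, within the range of the AD_TG and SJL_B6 libraries apart from replicate 4. The AD_B6 libraries low in Rps4l, replicates 2, 3 and 4, had reads for 10520, 8748 and 10438 genes, the fewest of the 12 libraries. AD_B6 replicate 1 had reads for 11449 genes, and the AD_TG and SJL_B6 libraries for 10860 to 12217. The estimated reads of AD_B6 replicates 2, 3 and 4 were 8093138, 8906865 and 5474948. The part of the number of genes read in the level of Rps4l was not tested.

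Rps10, a protein of the head of the small subunit, followed the same order of groups at a higher level. Rps10 had deposited log2 levels of 9.33, 9.90, 9.66 and 9.60 in AD_TG libraries, 8.40, 8.79, 7.38 and 8.13 in AD_B6 libraries and 9.07, 9.63, 9.36 and 9.47 in SJL_B6 libraries. All 4 AD_B6 libraries lay below all AD_TG and all SJL_B6 libraries, with a log2 difference of AD_TG against AD_B6 of 1.45 (SE 0.64, limma adjusted p = 0.871) and of AD_B6 against SJL_B6 of -1.21 (SE 0.64, limma adjusted p = 0.869). Of its 50-base end stretches, 86.5% occur in other annotated genes. Both differences rest on the same AD_B6 libraries.

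Rpl27a, a large subunit protein, had 10.83, 10.79, 10.83 and 10.92 in AD_TG libraries and 11.11, 11.37, 11.20 and 11.57 in AD_B6 libraries. The AD_TG libraries lay close together below the lowest AD_B6 library, and the log2 difference was -0.47 (SE 0.35, limma adjusted p = 0.875). The other members with the smallest unadjusted p in this comparison had log2 estimates of 0.41 for Rpl4, which lines the exit tunnel of the large subunit, and 0.60 for Rpl5, known also to bind Mdm2, and of -0.60 for Rpl8, -0.86 for Rpl30 and -0.58 for Rps28. Their groups overlapped. Without 1 library at a time the estimate ran from 0.26 to 0.72 for Rpl4 and from 0.32 to 0.91 for Rpl5.

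For AD_B6 against SJL_B6 the median log2 difference of the members was -0.11, with 32 higher and 51 lower in AD_B6 by their estimates. The median over all tested genes was -0.31, with 40.2% higher, and -0.07 over those with reads in all libraries. At an unadjusted p below 0.05 stood 1 of 83 members (Rps4l), against 647 or 5.41% of all tested genes, and the groups did not overlap for 2 (Rps4l and Rps10, both lower in AD_B6; 2.41%), against 2.82% of all tested genes, with 0.912% higher and 1.91% lower. Rplp1 had 12.56, 12.78, 12.94 and 12.39 in AD_B6 libraries and 13.37, 13.68, 12.60 and 13.07 in SJL_B6 libraries, a log2 difference of -0.52 (SE 0.30, limma adjusted p = 0.869). Of the 4 SJL_B6 libraries, 3 were above all AD_B6 libraries. Rps3, at the messenger entry of the small subunit, had a log2 difference of -0.46 with overlapping groups, and the members with the smallest unadjusted p on the higher side had log2 differences of 0.45 (Rpl13a), 0.62 (Rps12), 0.45 (Rps18) and 0.29 (Rps28). Without 1 library at a time these ran from 0.18 to 0.58 for Rpl13a, from 0.30 to 0.94 for Rps12, from 0.13 to 0.90 for Rps18 and from 0.0092 to 0.51 for Rps28.

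For AD_TG against SJL_B6 the median log2 difference of the members was -0.09, with 28 higher and 55 lower in AD_TG by their estimates. Over all tested genes the median was 0.08, with 53.3% higher, over those with reads in all libraries it was 0.02, and over the 967 with a mean of 10 or more it was -0.02, with 47.4% higher. Of the 42 members with such a mean, 6 (14.3%) had higher estimates. In AD_B6 against SJL_B6 13 of these 42 (31%) had higher estimates, against 43.3% of the 967 genes. In AD_TG against AD_B6 15 (35.7%) had, against 51.5%. In AD_TG against SJL_B6 no member stood at an unadjusted p below 0.05, against 357 or 2.99% of all tested genes. There 0 of 83 had groups that did not overlap, against 2.53% of all tested genes, with 1.46% higher and 1.07% lower. Rpl34, a large subunit protein, had 10.89, 10.06, 10.41 and 10.81 in AD_TG libraries and 11.83, 10.83, 11.004 and 11.40 in SJL_B6 libraries, a log2 difference of -0.73 (SE 0.39, limma adjusted p = 0.999). AD_TG replicate 1 lay above 1 SJL_B6 library and all other AD_TG libraries lay below. Rplp1 differed by -0.55, Rps3 by -0.58 and Rpl30 by -0.97 on the log2 scale, and the members with the smallest unadjusted p on the higher side had differences of 0.37 (Rps21), 0.40 (Rpl26), 0.52 (Rpl7) and 0.50 (Rps18), all with overlapping groups. Without 1 library at a time these ran from 0.14 to 0.63 for Rps21, from 0.15 to 0.58 for Rpl26, from 0.12 to 0.77 for Rpl7 and from 0.18 to 0.95 for Rps18.

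Genes next to the family in function gave no call either. Of 77 mitochondrial ribosomal protein genes 76 were tested, and 51 had higher estimates in AD_TG than in AD_B6 (median log2 difference 0.43), 30 were higher in AD_B6 than in SJL_B6 (median -0.51) and 40 higher in AD_TG than in SJL_B6 (median 0.09). These medians lie near those of all tested genes. Of the 16 other messengers of the translation machinery, which include the elongation factors Eef1a1 and Eef2 and the pyrimidine-start messenger Tpt1, 12, 7 and 11 had higher estimates in the same 3 comparisons, given in that order, with median log2 differences of 0.17, -0.07 and 0.19. Of the 22 ribosome assembly genes 19 were tested, and 11, 8 and 10 had higher estimates, with medians of 0.27, -0.07 and 0.01. In each of the 3 lists limma called 0 genes at an adjusted p below 0.05 in all 3 comparisons. At an unadjusted p below 0.05 stood, for AD_TG against AD_B6, 2 of 76 mitochondrial, 2 of 16 translation and 2 of 19 assembly genes, against 5.35% of all tested genes. For AD_B6 against SJL_B6 these counts were 1, 0 and 1, against 5.41%, and for AD_TG against SJL_B6 they were 2, 0 and 0, against 2.99%.

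Outside the symbol rule, Fau had deposited log2 levels of 9.71, 8.87, 9.74 and 10.46 in AD_TG libraries, 10.60, 10.13, 10.18 and 9.41 in AD_B6 libraries and 10.45, 10.76, 10.46 and 10.26 in SJL_B6 libraries. The AD_TG libraries reached lowest and the groups overlapped.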

How the data were processed

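RNA libraries were made with the Lexogen QuantSeq kit from 500 ng of total RNA, per the labels' protocols, and Bowtie2, bedtools and the build hg19 are named in the submitters' processing notes, with no versions or roles. That build is human, whereas the tables carry mouse symbols; they hold no coordinates. Each library has 1 table of log2 values, 1 per gene symbol, as the authors deposited them; the values are log2(x + 1) of amounts whose scaling is not given in the sources used here. Of 23282 entries, 44 repeats of 35 symbols were left out, none of them a member.

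The members, lists and tests were chosen with earlier results of these data known. A gene entered the test at 10 or more on the linear scale in 4 or more libraries. The test was that of limma 3.58.1 under R 4.3.3, run on the deposited values with 1 linear model for the 12 libraries and eBayes with a variance trend, two-sided, with Benjamini-Hochberg adjustment over all 11955 genes and a threshold of 0.05. The fit was also run on the deposited values shuffled between libraries within each gene, with log2 shifts added to some genes. How many of these shifts were called is not reported here. Named were the 6 highest and 6 lowest members, those without reads in some library, the 4 smallest unadjusted p-values per direction and comparison, the 3 largest and 3 smallest SDs, the paralogs with their namesakes, and the stalk genes with Rpsa. Rps27rt, Rpl37rt and the other copies were named after their values were seen. Rps6, Rpl11 and Rps27a were named for known roles, outside the list above. Reads per library were estimated from steps in the linear values below 20: 90.6 to 100% of these differed from whole steps by at most 0.15.

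Coding lengths and transcript ends came from GENCODE mouse transcripts for 84 of 85 members, since no protein table was used, and Rps4l has no annotated coding sequence. The transcript was the one with the best principal-isoform rank, then the longest coding sequence, then the shortest length. The comparison of transcript ends, and this choice of transcript, were made after seeing the data, and the choice was revised with the correlation in view. Start windows came from RefSeq. Alternatives were other scalings, a pseudocount of 10, other filters, no variance trend, a replicate block and leaving out each library. A further gene outside the symbol rule is not reported here.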

Additional observations from a re-analysis of the deposited data

Results flagged for a closer look

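Within groups of 4 libraries, 8 of 138 sets of values had 1 library apart from the other 3 by more than Dixon's 95% limit. For normally distributed values chance gives about 1 in 20, which is close to the share found. That rate does not hold for sets with values at 0 or tied counts, such as those of Rpl39l and of the number of members with reads. Rpl10l had a deposited log2 level of 8.159 in AD_B6 replicate 4, against 0.951 or less in the other AD_B6 libraries. Rpl39l stood apart in each group, at 0.071 in AD_TG replicate 1, at 0.951 in AD_B6 replicate 1 and at 7.558 in SJL_B6 replicate 3; only the last of these lies far above 0. Rps12 had 10.482 in AD_B6 replicate 3, against 9.464 to 9.586 in the other AD_B6 libraries, and Rpl34 had 10.973 in the same library, against 10.804 to 10.83. Rplp2 had 11.999 in SJL_B6 replicate 2, against 11.397 to 11.433. AD_TG replicate 4 had reads for 82 members, against 83 in each other AD_TG library.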

How the results depend on the processing

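Without the variance trend limma called 10 genes for AD_B6 against SJL_B6, 10 for AD_TG against AD_B6 and 2 for AD_TG against SJL_B6, in place of 0, and 0 of them were ribosomal protein genes. Under every other scaling, pseudocount and filter, and without any 1 library, each comparison gave 0 calls. The number of members with reads in AD_TG was 83.25 when any value above 0 counted and 82.25 at a linear value of 10 or more, against 82.75. The SD between members was 1.49 per kilobase, against 1.22. No log2 difference between groups given for a single member changed sign under the settings it was recomputed with; the levels of the members named for other reasons were not recomputed gene by gene. Rps4l could not be fitted among genes with reads in all libraries, which it lacks; over the other settings its difference ran from 3.57 to 6.79 for AD_TG against AD_B6 and from -6.76 to -3.54 for AD_B6 against SJL_B6, with limma adjusted p-values from 0.405 to 0.966. The median member difference of AD_TG against AD_B6 ran from -0.13 to 0.06 when 1 library was left out, above 0 without AD_TG replicate 1, and that of AD_B6 against SJL_B6 from -0.19 to 0.03, above 0 without AD_B6 replicate 4 (0.0011) or SJL_B6 replicate 2 (0.03); that of AD_TG against SJL_B6 ran from -0.20 to -0.03. Quantile normalization took the median of all tested genes to 0.17 for AD_TG against AD_B6 and to -0.12 for AD_B6 against SJL_B6, against 0.41 and -0.31, and left the members' medians at -0.04 and -0.07. The Spearman rho between shared transcript end and level, whose choices were made after seeing the data, was -0.418; it was -0.423 with 75-base stretches, -0.368 and -0.448 when the best supported transcript was used with ties going to the longest or the shortest, and -0.335 for the level per kilobase. With those transcripts 58 and 64 members shared a stretch, in place of 65. The cause of these shifts was not tested. The fit with a replicate block gave 0 calls in each comparison; same-numbered libraries had correlations of their deviations of -0.00585 to 0.0857 over 12 pairs, 0 of them above 0.1, and 5 of 12 were highest with their own number, so the numbers were not taken as pairing.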
